A study of Mus musculus with 8 samples.

Results

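The nuclear genes for the subunits of the mitochondrial respiratory chain and ATP synthase were followed in mouse epiblasts at embryonic day 5.5, the embryonic tissue that forms the body. Members were the protein-coding genes whose symbols start with Nduf, Uqcr, Cox4i, Cox5, Cox6, Cox7, Cox8 or Atp5, and the 4 genes Sdha, Sdhb, Sdhc and Sdhd. The rule used no measured value. It found 93 of the 52636 gene identifiers in the count table, and 91 of them passed the filter on low counts. Another 13 identifiers matched the prefixes but were not annotated as protein-coding, nearly all processed pseudogenes. The 93 members comprised 36 subunits of complex I, 8 complex I assembly factors (the Ndufaf genes), 4 subunits of complex II, 8 of complex III, 20 of complex IV and 17 of ATP synthase (complex V).

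All embryos had the genotype Sox2Cre;CRAFR26. Sox2Cre drives recombination in the epiblast, and the CRAFR26 construct lets ERK, a kinase of the MAPK pathway, be induced by 4-hydroxytamoxifen (4OHT). As labelled, embryos were cultured in IVC2 medium with 250 nM 4OHT or with ethanol vehicle for 4 h, and the extraembryonic layers were then dissected off. Vehicle libraries carry 0 h in their titles but 4 h in vehicle as treatment, so whether they were cultured is not settled by the labels. The groups were vehicle and 4OHT in the line of clone 4, and vehicle and 4OHT in the line of clone 8, with 2 libraries each. The mice came from morulas injected with embryonic stem cells that carry the construct. The design text calls clones 4 and 8 biological clones and says no more of them. For each library, 10 epiblasts were pooled, of which 7 ng of RNA was used. The strain is not given in the labels. Nothing in the labels says that the 2 pools of a group came from separate litters or days, so p-values measure the spread between these pools.

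The respiratory chain passes electrons from NADH (at complex I) and succinate (at complex II) through complex III to complex IV, where oxygen is reduced, and the proton gradient that complexes I, III and IV build drives ATP synthesis by complex V. Most subunits are encoded in the nucleus, but the membrane cores of complexes I, III, IV and V also need subunits made from mitochondrial DNA. The post-implantation epiblast is known for a strongly glycolytic metabolism.

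Some properties of the libraries moved with the groups and are given before the results. Vehicle libraries held 33341813 to 37960284 counts, 4OHT libraries 56384556 to 72497719, so depth and treatment cannot be told apart. The 10 epiblast markers were all detected and summed to between 4947 and 6349 CPM (counts per 1000000 of the library's total after TMM scaling) in the 8 libraries. The 14 visceral endoderm markers, all detected, summed to 576 and 935 CPM in vehicle clone 4, 2678 and 3023 in 4OHT clone 4, 1981 and 2003 in vehicle clone 8, and 499.8 and 1340.3 in 4OHT clone 8. The 10 extraembryonic ectoderm and trophoblast markers, also all detected, summed to 211 and 256 CPM in vehicle clone 8 and to between 544 and 833 in the other libraries. In clone 8 after 4OHT, 4 of 10 epiblast markers and 6 of 14 visceral endoderm markers were called lower, where 8.6% of all tested genes were. Of the 10 epiblast markers 9 lay below 0, with a median log2 fold change of -0.41. Of the extraembryonic ectoderm markers, 8 of 10 were called higher, where 8% of all tested genes were. The part that these tissues have in the results below was not tested. With counts thinned to the smallest library total, 73 members were called lower in clone 8 with a median log2 fold change of -0.73, as at full depth. Of all 17285 genes tested there, 1617 were called lower. In RNA from pools, fewer cells of a type and less RNA per cell cannot be told apart.

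The members together took 1.99% and 2.01% of the counts in vehicle clone 4, 1.88% and 1.81% in 4OHT clone 4, 2.55% and 2.37% in vehicle clone 8, and 1.78% and 1.77% in 4OHT clone 8. The vehicle libraries of clone 8 were the highest and the 4OHT libraries of clone 8 the lowest, and neither pair overlapped any other group. The 95% Wilson interval of the share in the shallowest library, replicate 2 of vehicle clone 8, ran from 2.365% to 2.376%, and it covers counting error only. The summed level of complex I was 5150 and 5197 CPM in vehicle clone 4, 4807 and 4812 in 4OHT clone 4, 7262 and 6420 in vehicle clone 8, and 4241 and 4131 in 4OHT clone 8. Complex II varied less, at 1052 and 1114 CPM in vehicle clone 4, 1047 and 1017 in 4OHT clone 4, 1106 and 1041 in vehicle clone 8, and 849 and 924 in 4OHT clone 8.

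**Figure D1:**
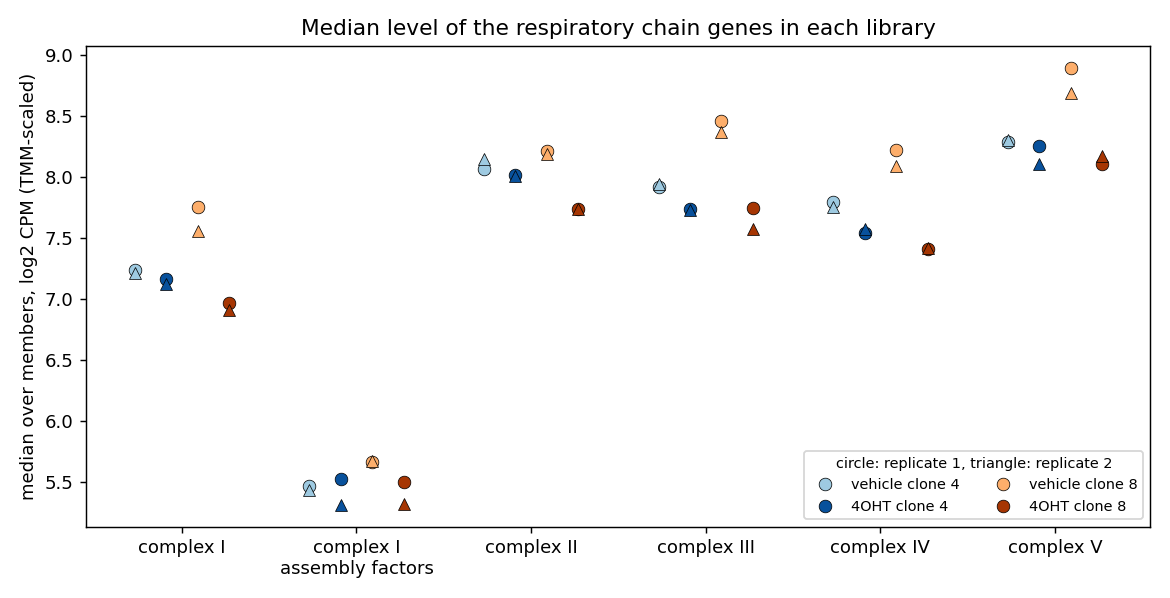
Median log2 CPM over the tested members of each complex (vertical axis) in each of the 8 libraries, grouped by complex; colours give the group, circles replicate 1 and triangles replicate 2. In every complex and in the assembly factors both vehicle libraries of clone 8 lie above every other library, by less in the assembly factors and complex II than in complexes I, III, IV and V.

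Per kilobase of transcript, ATP synthase and complex III genes were the most abundant and the assembly factors the least. The medians of the members' mean CPM per kilobase were 393 in complex III, 264 in complex V, 237 in complex IV, 173 in complex II, 146 in complex I and 31.4 for the assembly factors. Atp5b, the catalytic beta subunit of ATP synthase, was the most abundant member at 1155 ± 127 CPM per kilobase (SD, 8 libraries). The highest of their complexes were Cox4i1, a regulatory subunit of complex IV, at 714 ± 184, Uqcr10, a small subunit of complex III, at 609 ± 142, and Ndufa7, an accessory subunit of complex I, at 435 ± 140.5. In complex II the iron-sulfur subunit Sdhb (222 ± 36.1) and the membrane anchor Sdhd (220.5 ± 26.2) did not differ beyond their spread, and the other anchor Sdhc was lowest (41.6 ± 8.23). The top of complex IV was also level within its spread, with Cox8a at 699 ± 158 and Cox6a1 at 689 ± 192.

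Many of the lowest members were complex IV isoforms known from other tissues: the muscle isoforms Cox7a1 (7.04 ± 3.46 CPM per kilobase) and Cox6a2 (0.194 ± 0.175), and the testis isoforms Cox7b2 (1.99 ± 0.896) and Cox6b2 (16.9 ± 3.29). Cox4i2, the oxygen-regulated partner of Cox4i1, was at 1.52 ± 0.659. The muscle isoform Cox8b had no counts in any library, and the testis isoform Cox8c had too few to be tested (0.291 ± 0.160). Ndufa4l2, the hypoxia-induced relative of Ndufa4, was at 11.1 ± 4.63, the assembly factor Ndufaf5 at 13.8 ± 3.03 and Atp5s, the lowest gene of complex V, at 5.09 ± 0.885. Some ubiquitous subunits were as low: Ndufb2 (3.65 ± 1.14) and Ndufb4 (15.4 ± 5.11) of complex I, and Atp5l, subunit g of ATP synthase (9.25 ± 2.37). Ndufb4 and Atp5l have processed copies elsewhere in the genome, and the copies Ndufb4c and Atp5l2-ps held 44 to 81 and 43 to 82 counts per library. How reads shared between copies were counted is not given in the sources used here, so the levels of these members are uncertain.

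In clone 8, nuclear respiratory chain genes were lower after 4OHT in every complex. Of 91 tested members, 73 were called lower and 0 higher (edgeR's quasi-likelihood test, Benjamini-Hochberg adjusted p under 0.05 over all 18321 tested genes), where 8.6% of all tested genes were called lower. The median log2 fold change was -0.73 over the members and 0.07 over all tested genes, and 85 of 91 members lay below 0. In 83 of 91, both 4OHT libraries lay below both vehicle libraries of the clone. The share of all tested genes so separated is not given here, so the 83 only describe the members, and the main count is the 73 lower calls. This count rests on 1 library: without replicate 1 of vehicle clone 8 no member was called, nor was any other gene, while the members' median was -0.67. Fitted on the 4 libraries of clone 8 alone, no member was called, 3 genes were called in all, and the median was -0.76.

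**Figure D2:**
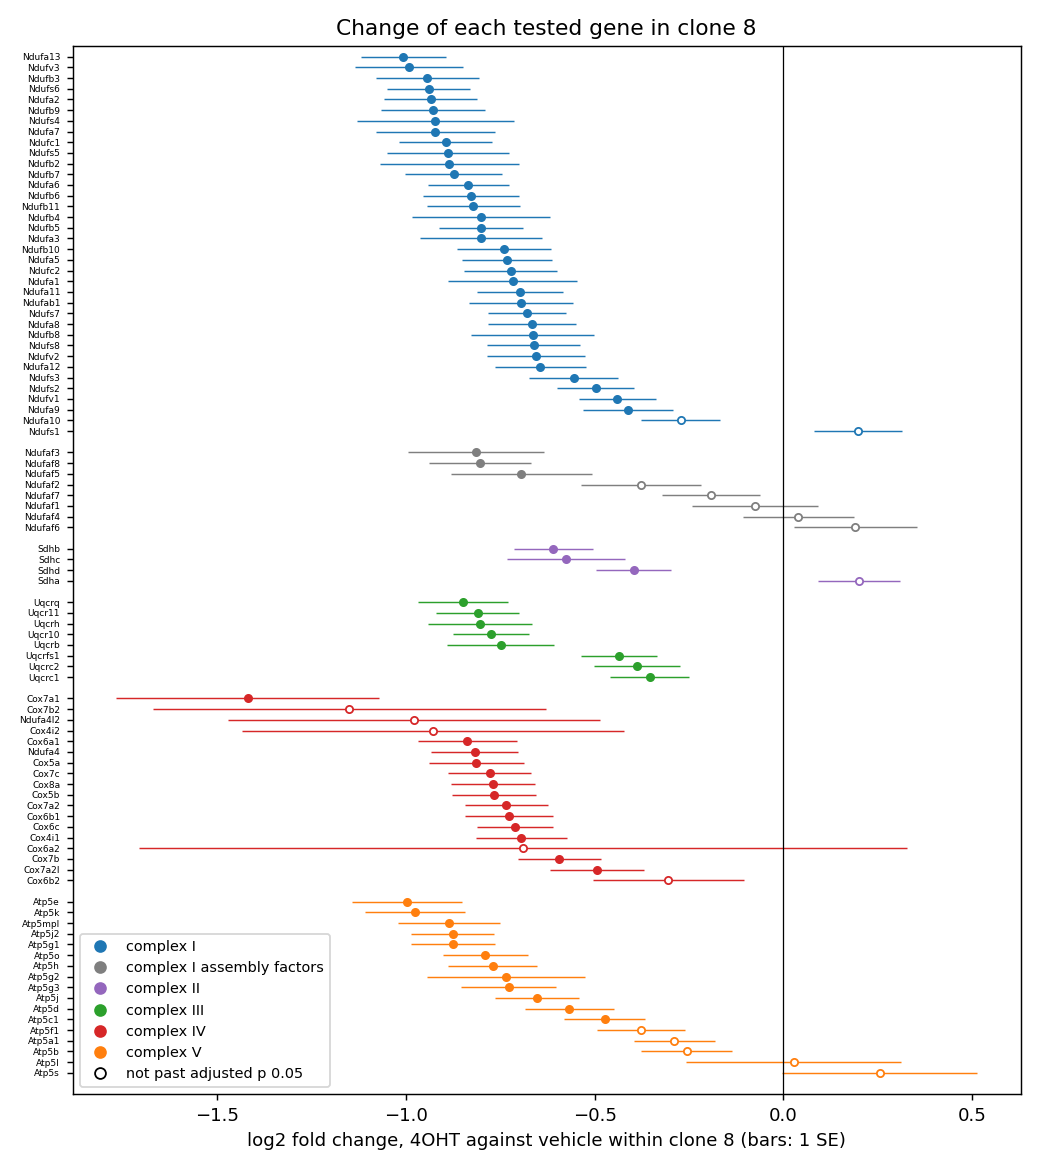
Log2 fold change of each tested member, 4OHT against vehicle within clone 8, with bars of 1 SE (horizontal axis), sorted within complexes; filled points passed an adjusted p of 0.05. Of 91 members 73 are filled, all left of 0, and the 6 points right of 0 are open.

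In complex I, 34 of 36 subunits were called lower, with a median of -0.77. The core subunits, which carry the flavin and the iron-sulfur clusters, had a median of -0.56 (6 of 7 called), and the accessory subunits, which surround the core, had -0.82 (28 of 29 called). That difference between core and accessory subunits was not tested. Ndufa13, an accessory subunit also known as GRIM-19, stood at 248 and 217 CPM in vehicle clone 8 and 119 and 113 in 4OHT clone 8 (log2 fold change -1.01 ± 0.11, adjusted p = 0.00699). The groups did not overlap. Ndufs6, a zinc-binding accessory subunit of the arm that takes up NADH, stood at 251 and 227 CPM in vehicle clone 8 and 126 and 124 in 4OHT clone 8 (-0.94 ± 0.11, adjusted p = 0.00699). Ndufv3, another accessory subunit of that arm, stood at 143 and 137 CPM in vehicle clone 8 and 61.0 and 80.1 in 4OHT clone 8 (-0.99 ± 0.14, adjusted p = 0.00850). Both fell without overlap between the groups. Ndufb3 and Ndufb9 belong to the accessory subunits of the membrane arm. Ndufb3 stood at 94.7 and 79.0 CPM in vehicle clone 8 and 44.0 and 46.4 in 4OHT clone 8 (-0.94 ± 0.14, adjusted p = 0.00850). Ndufb9 stood at 309.6 and 247 CPM in vehicle clone 8 and 155 and 138 in 4OHT clone 8 (-0.93 ± 0.14, adjusted p = 0.00883). In both, the higher of the vehicle libraries was replicate 1.

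Ndufs4, an accessory subunit whose loss in humans causes Leigh syndrome, stood at 150.03 and 107 CPM in vehicle clone 8 and 76.3 and 59.2 in 4OHT clone 8 (-0.92 ± 0.21, adjusted p = 0.0205). Ndufa2 stood at 268 and 225 CPM in vehicle clone 8 and 126 and 132 in 4OHT clone 8 (-0.93 ± 0.12, adjusted p = 0.00782). The 2 subunits that were not called were Ndufs1, the largest core subunit, and Ndufa10, an accessory subunit. Ndufs1 stood at 94.4 and 109.7 CPM in vehicle clone 8 and 113 and 121 in 4OHT clone 8 (0.20 ± 0.12, adjusted p = 0.271), with both 4OHT libraries above both vehicle libraries. Ndufa10 stood at 245 and 225 CPM in vehicle clone 8 and 188 and 201 in 4OHT clone 8 (-0.27 ± 0.10, adjusted p = 0.102). Of the 8 assembly factors, which help build complex I and are not part of it, 3 were called lower: Ndufaf3 (-0.81 ± 0.18, SE), Ndufaf8 (-0.80 ± 0.14) and Ndufaf5 (-0.69 ± 0.19). Their median was -0.28, and Ndufaf4 (0.04 ± 0.15) and Ndufaf6 (0.19 ± 0.16) lay above 0.

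Complex II, succinate dehydrogenase, is the only complex with no subunit from mitochondrial DNA and also serves the tricarboxylic acid cycle. Its iron-sulfur subunit Sdhb stood at 326 and 286 CPM in vehicle clone 8 and 201 and 201 in 4OHT clone 8 (log2 fold change -0.61 ± 0.10, adjusted p = 0.0109). The anchor Sdhc stood at 186 and 147 CPM in vehicle clone 8 and 99.9 and 123 in 4OHT clone 8 (-0.58 ± 0.16, adjusted p = 0.0368). The anchor Sdhd stood at 302 and 296 CPM in vehicle clone 8 and 227 and 227 in 4OHT clone 8 (-0.40 ± 0.10, adjusted p = 0.0283). All 3 were called lower, and in each of them the 4OHT libraries lay below the vehicle libraries. The catalytic flavoprotein Sdha was not called, and stood at 292 and 312 CPM in vehicle clone 8 and 321 and 372 in 4OHT clone 8 (0.20 ± 0.11, adjusted p = 0.234), above the vehicle libraries in both 4OHT libraries.

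In complex III all 8 subunits were called lower, with a median of -0.76. The small subunits Uqcrq (-0.85 ± 0.12, SE), Uqcr11 (-0.81 ± 0.11), Uqcrh (-0.80 ± 0.14), Uqcr10 (-0.77 ± 0.10) and Uqcrb (-0.75 ± 0.14) had the larger changes. The Rieske iron-sulfur protein Uqcrfs1 (-0.44 ± 0.10) and the core proteins Uqcrc2 (-0.39 ± 0.11) and Uqcrc1 (-0.35 ± 0.10) changed less. Uqcr10 stood at 369.97 and 342 CPM in vehicle clone 8 and 212 and 204 in 4OHT clone 8 (adjusted p = 0.00782). Uqcrc1, the most abundant of the core proteins, stood at 668 and 652 CPM in vehicle clone 8 and 530.1 and 502 in 4OHT clone 8 (adjusted p = 0.0476). The groups did not overlap in either gene.

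In complex IV, 13 of 18 tested subunits were called lower, with a median of -0.77, and the other 5 were low isoforms. Cox7a1, the muscle isoform of subunit 7a, had the lowest fold change of all members (-1.42 ± 0.35, adjusted p = 0.0273) but at a level of only 5.04 and 4.70 CPM in vehicle clone 8 and 1.49 and 2.15 in 4OHT clone 8. Its ubiquitous counterpart Cox7a2 stood at 409 and 377 CPM in vehicle clone 8 and 228 and 245 in 4OHT clone 8 (-0.73 ± 0.11, adjusted p = 0.00917), and the supercomplex factor Cox7a2l at 212 and 183 CPM in vehicle clone 8 and 143 and 137 in 4OHT clone 8 (-0.49 ± 0.12, adjusted p = 0.0291). Both fell without overlap. Cox4i1 stood at 823 and 706 CPM in vehicle clone 8 and 498 and 448 in 4OHT clone 8 (-0.69 ± 0.12, adjusted p = 0.0109), and its partner Cox4i2 at 2.12 and 1.36 CPM in vehicle clone 8 and 0.642 and 1.18 in 4OHT clone 8 (-0.93 ± 0.51, adjusted p = 0.234). Cox6a1 stood at 609 and 501 CPM in vehicle clone 8 and 289 and 333 in 4OHT clone 8 (-0.84 ± 0.13, adjusted p = 0.00929), and Cox6a2 at 0.223 and 0.331 CPM in vehicle clone 8 and 0.241 and 0.1001 in 4OHT clone 8, too low for a precise change (-0.69 ± 1.02, adjusted p = 0.679).

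The remaining isoform families of complex IV showed the same layout of 1 abundant member and 1 or more scarce ones. Cox6b1 stood at 357 and 295 CPM in vehicle clone 8 and 194 and 201 in 4OHT clone 8 (-0.73 ± 0.12, adjusted p = 0.00959), and the testis isoform Cox6b2 at 12.2 and 11.5 CPM in vehicle clone 8 and 9.55 and 9.63 in 4OHT clone 8 (-0.30 ± 0.20, adjusted p = 0.321). Cox7b stood at 329.9 and 309 CPM in vehicle clone 8 and 225 and 199 in 4OHT clone 8 (-0.59 ± 0.11, adjusted p = 0.0126), and Cox7b2 at 1.06 and 2.17 CPM in vehicle clone 8 and 0.867 and 0.584 in 4OHT clone 8 (-1.15 ± 0.52, adjusted p = 0.157). Cox8a stood at 545 and 468 CPM in vehicle clone 8 and 289.7 and 305 in 4OHT clone 8 (-0.77 ± 0.11, adjusted p = 0.00852). The abundant isoform fell in each family, and the scarce isoforms other than Cox7a1 did not pass the test. Ndufa4, named as a complex I gene but now placed in complex IV, stood at 557 and 468 CPM in vehicle clone 8 and 281 and 300.1 in 4OHT clone 8 (-0.82 ± 0.12, adjusted p = 0.00850). Its hypoxia-induced relative Ndufa4l2 stood at 16.7 and 13.6 CPM in vehicle clone 8 and 3.95 and 11.4 in 4OHT clone 8 (-0.98 ± 0.49, adjusted p = 0.199), and its 4OHT libraries lay far apart from each other.

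In ATP synthase, 12 of 17 genes were called lower, with a median of -0.73. Atp5e, the epsilon subunit of the central stalk, stood at 191 and 163 CPM in vehicle clone 8 and 91.9 and 85.5 in 4OHT clone 8 (-0.996 ± 0.14, adjusted p = 0.00852). Atp5k, subunit e of the membrane part, stood at 111 and 121 CPM in vehicle clone 8 and 55.9 and 61.9 in 4OHT clone 8 (-0.97 ± 0.13, adjusted p = 0.00814). Neither gene overlapped between groups. The 3 genes for the same c subunit of the rotor ring were all called: Atp5g1 at 673 and 619 CPM in vehicle clone 8 and 331 and 373 in 4OHT clone 8 (-0.88 ± 0.11, adjusted p = 0.00782), Atp5g2 (-0.73 ± 0.21, adjusted p = 0.0429) and Atp5g3 (-0.73 ± 0.13, adjusted p = 0.0109). Atp5g2 stood at 132 and 93.6 CPM in vehicle clone 8 and 59.9 and 75.9 in 4OHT clone 8. Atp5g3 stood at 844 and 699 CPM in vehicle clone 8 and 451 and 481 in 4OHT clone 8. Per kilobase Atp5g3 was far above Atp5g1 (812 against 103.5 CPM, mean of 8 libraries). That gap depends on the transcript taken for each gene, 723 bases for Atp5g3 and 4715 for Atp5g1, and is uncertain.

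The genes of the catalytic head, Atp5b and Atp5a1, were not called. Atp5b stood at 2533 and 2253 CPM in vehicle clone 8 and 1826 and 2182 in 4OHT clone 8, with the upper 4OHT library close to the lower vehicle library (-0.26 ± 0.12, adjusted p = 0.173). Atp5a1, the alpha subunit, stood at 1596 and 1418 CPM in vehicle clone 8 and 1176 and 1291 in 4OHT clone 8 (-0.29 ± 0.11, adjusted p = 0.0930). Atp5f1, subunit b of the peripheral stalk, had -0.38 ± 0.12, adjusted p = 0.0548. It did not pass the test either. Atp5s, coupling factor B, and Atp5l were at 6.91 and 7.59 CPM in vehicle clone 8 and 10.3 and 6.97 in 4OHT clone 8 and at 6.30 and 5.81 CPM in vehicle clone 8 and 6.34 and 6.01 in 4OHT clone 8, and neither was called (0.26 ± 0.26 and 0.03 ± 0.28, SE). Atp5if1 (Atpif1), the inhibitor of the enzyme, is not named by the rule.

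Within clone 4, no member was called in either direction by edgeR's quasi-likelihood test (lower calls over all tested genes 0%) or by DESeq2. At an unadjusted p under 0.05, 12 members were lower and 1 higher, where 3.68% of all tested genes were lower at that p. The median was -0.12 over the members and -0.00 over all tested genes, and 73 of 91 members lay below 0. By complex, the medians were -0.10 in complex I, -0.03 for the assembly factors, -0.08 in complex II, -0.11 in complex III, -0.18 in complex IV and -0.17 in complex V. Cox7a2l had the lowest adjusted p, at 171 and 201 CPM in vehicle clone 4 and 142 and 142 in 4OHT clone 4 (log2 fold change -0.39 ± 0.12, adjusted p = 0.304). Uqcrh, the hinge protein of complex III, stood at 228 and 267 CPM in vehicle clone 4 and 197 and 176 in 4OHT clone 4 (-0.41 ± 0.14, adjusted p = 0.346). The groups did not overlap in either gene. Members are named for clone 4 by their lowest p in each direction. Separation of their libraries was therefore likely in advance and adds no support for a response.

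Atp5e stood at 88.3 and 103 CPM in vehicle clone 4 and 78.2 and 65.0 in 4OHT clone 4 (-0.41 ± 0.14, adjusted p = 0.359). Atp5k stood at 79.2 and 68.3 CPM in vehicle clone 4 and 54.6 and 57.2 in 4OHT clone 4 (-0.40 ± 0.13, adjusted p = 0.328). Cox6b2 stood at 9.98 and 11.8 CPM in vehicle clone 4 and 6.89 and 7.60 in 4OHT clone 4 (-0.59 ± 0.20, adjusted p = 0.348). In these 3 genes, also named for their low p, both 4OHT libraries lay below both vehicle libraries of clone 4. On the other side, Ndufb11, an accessory subunit of the membrane arm, stood at 101 and 89.9 CPM in vehicle clone 4 and 119 and 123 in 4OHT clone 4 (0.34 ± 0.12, adjusted p = 0.388), with both 4OHT libraries higher. Ndufb5, of the same arm, stood at 109 and 106 CPM in vehicle clone 4 and 119.6 and 119.7 in 4OHT clone 4 (0.15 ± 0.11, adjusted p = 0.744), also without overlap.

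**Figure D3:**
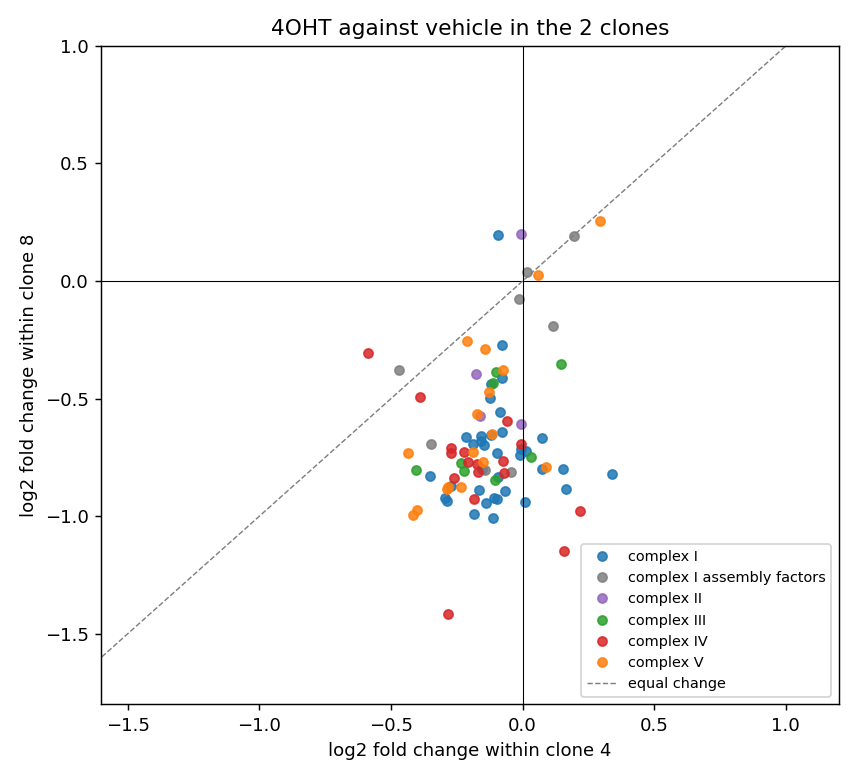
Log2 fold change of 4OHT against vehicle within clone 4 (horizontal axis) and within clone 8 (vertical axis) for each tested member, coloured by complex; the dashed line marks equal change. The members' medians are -0.12 in clone 4 and -0.73 in clone 8, and most points lie below the line; Cox6a2, with few counts, lies outside the axes.

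The difference of the responses, clone 8 minus clone 4, was called for 9 members, all with the lower response in clone 8, where 1.75% of all tested genes were called in that direction. The median difference was -0.57 log2 units over the members and 0.05 over all tested genes, and 86 of 91 lay below 0. Of the 9, 7 were accessory subunits of complex I: Ndufb11 (difference -1.16 ± 0.17, adjusted p = 0.0256), Ndufb5 (-0.95 ± 0.16, adjusted p = 0.0295), Ndufs6 (-0.95 ± 0.15, adjusted p = 0.0280), Ndufa13, Ndufc1, Ndufa6 and Ndufa8, whose adjusted p was 0.0499. The others were Ndufa4 of complex IV and Atp5o, the OSCP subunit that links the parts of ATP synthase. Ndufb11 stood at 101 and 89.9 CPM in vehicle clone 4, 119 and 123 in 4OHT clone 4, 155 and 133 in vehicle clone 8, and 81.3 and 81.8 in 4OHT clone 8. It was highest in vehicle clone 8 and lowest in 4OHT clone 8, and both 4OHT libraries of clone 4 lay above the vehicle libraries of that clone. Atp5o stood at 365 and 379.6 CPM in vehicle clone 4, 387 and 406 in 4OHT clone 4, 602 and 506 in vehicle clone 8, and 333 and 308 in 4OHT clone 8 (-0.88 ± 0.16, adjusted p = 0.0353). Its level in clone 4 and in 4OHT clone 8 differed less than either did from vehicle clone 8.

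Ndufa13 stood at 165 and 156 CPM in vehicle clone 4 and 145 and 151 in 4OHT clone 4, with a difference of -0.89 ± 0.16, adjusted p = 0.0331. Ndufs6 stood at 146 and 139 CPM in vehicle clone 4 and 148 and 139 in 4OHT clone 4. Ndufa4 stood at 315 and 345 CPM in vehicle clone 4 and 309.8 and 318 in 4OHT clone 4, with a difference of -0.75 ± 0.16, adjusted p = 0.0487. In clone 4 the groups overlapped for Ndufs6 and Ndufa4, and lay close together for Ndufa13. The count of 9 rests on single libraries: it was 0 without either vehicle library of clone 4, without either 4OHT library of clone 4, and without replicate 1 of vehicle clone 8, and it was 10 to 12 without each of the other 3. DESeq2 called 42 members, where 5.95% of all tested genes were called lower, and the fit without an expression filter called 32, where 3.6% of 30973 genes were. With length and GC trends removed from each library, the median difference was -0.37 and 6 members were called, where 336 of 18321 tested genes were called lower.

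Over both clones, with clone as a term, no member was called by edgeR's quasi-likelihood test (lower calls over all tested genes 0%), while 68 of 91 members were lower at an unadjusted p under 0.05, where 8.05% of all tested genes were. DESeq2 called 33 members lower, where 3.15% of all tested genes were, and edgeR without an expression filter called 38, where 1.71% of 30973 genes were. The median was -0.42 over the members and 0.04 over all tested genes. All 4 4OHT libraries lay below all 4 vehicle libraries in 48 of 91 members, against 5.58% of all tested genes, and in no member were they all above. The 48 comprised 19 of 36 complex I subunits, 2 of 8 assembly factors, 2 of 4 in complex II, 5 of 8 in complex III, 9 of 18 in complex IV and 11 of 17 in complex V.

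Among them, Uqcrh stood at 228 and 267 CPM in vehicle clone 4, 197 and 176 in 4OHT clone 4, 384 and 322 in vehicle clone 8, and 217 and 188 in 4OHT clone 8 (log2 fold change over both clones -0.60 ± 0.12, adjusted p = 0.118). Cox6c, a small subunit of complex IV, stood at 226 and 209 CPM in vehicle clone 4, 180.04 and 179.8 in 4OHT clone 4, 297 and 294 in vehicle clone 8, and 184 and 177 in 4OHT clone 8 (-0.49 ± 0.11, adjusted p = 0.118). Ndufb6 stood at 101 and 115 CPM in vehicle clone 4, 84.997 and 84.9 in 4OHT clone 4, 147 and 124 in vehicle clone 8, and 76.0 and 76.5 in 4OHT clone 8 (-0.59 ± 0.13, adjusted p = 0.118). In each of the 3, the vehicle libraries of clone 8 were the highest and the 4OHT libraries of both clones were similar to each other. Members with fold changes above 0 were few. Ndufaf6, an assembly factor, stood at 35.8 and 30.3 CPM in vehicle clone 4, 40.8 and 35.0 in 4OHT clone 4, 37.0 and 35.7 in vehicle clone 8, and 44.5 and 38.4 in 4OHT clone 8 (0.19 ± 0.12, adjusted p = 0.452). Sdha stood at 386 and 414 CPM in vehicle clone 4, 402 and 394 in 4OHT clone 4, 292 and 312 in vehicle clone 8, and 321 and 372 in 4OHT clone 8 (0.10 ± 0.09, adjusted p = 0.618), and its lowest libraries were the vehicle libraries of clone 8.

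In vehicle, the members were higher in clone 8 than in clone 4. This comparison shares its vehicle libraries with the responses above, so its values stand beside them and add no independent support. Of 91 members, 36 were called higher in clone 8, where 4.06% of all tested genes were called higher. Ndufs1 alone was called lower, where 4.31% of all tested genes were. The median was 0.44 over the members and 0.00 over all tested genes. The calls fell on 17 of 36 complex I subunits, all of them accessory, 4 of 8 in complex III, 9 of 18 in complex IV and 6 of 17 in complex V. None fell on complex II or the assembly factors. With length and GC trends removed from each library, 4 members were called higher, where 2.95% of all tested genes were, none was called lower, and the median was 0.17.

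Atp5e stood at 88.3 and 103 CPM in vehicle clone 4 and 191 and 163 in vehicle clone 8 (log2 fold change 0.89 ± 0.14, adjusted p = 0.0199). Ndufs6 stood at 146 and 139 CPM in vehicle clone 4 and 251 and 227 in vehicle clone 8 (0.75 ± 0.11, adjusted p = 0.0162). Cox4i1 stood at 447 and 502 CPM in vehicle clone 4 and 823 and 706 in vehicle clone 8 (0.69 ± 0.12, adjusted p = 0.0215). In all 3 the clones did not overlap. Uqcrb and Uqcrq help bind ubiquinone in complex III. Uqcrb stood at 191 and 184 CPM in vehicle clone 4 and 318 and 275 in vehicle clone 8 (0.66 ± 0.14, adjusted p = 0.0294), and Uqcrq at 234 and 236 CPM in vehicle clone 4 and 382 and 359 in vehicle clone 8 (0.66 ± 0.12, adjusted p = 0.0226). Cox7c, a small subunit of complex IV, stood at 333 and 288 CPM in vehicle clone 4 and 486 and 488 in vehicle clone 8 (0.65 ± 0.11, adjusted p = 0.0207). Ndufs1 went the other way, at 142 and 144 CPM in vehicle clone 4 and 94.4 and 109.7 in vehicle clone 8 (-0.49 ± 0.12, adjusted p = 0.0395). Sdha leaned that way too without passing the test, at 386 and 414 CPM in vehicle clone 4 and 292 and 312 in vehicle clone 8 (-0.40 ± 0.11, adjusted p = 0.0521). The uncertain members Ndufb4 (0.97 ± 0.18, SE) and Ndufb2 (0.90 ± 0.19) had the largest called differences.

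The 36 calls also rest on single libraries: none was left without either vehicle library of clone 4 or without replicate 1 of vehicle clone 8, and 9 and 11 were left without replicates 1 and 2 of 4OHT clone 4. In the other 3 fits with 1 library left out, 34 to 41 members were called.

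The subunits encoded in mitochondrial DNA moved the other way in clone 8. Of 13 such genes, 7 passed the filter, and 5 of the 7 were called higher after 4OHT in clone 8, where 8% of all tested genes were, with a median log2 fold change of 1.07. The other 6 were at or near 0 counts in every library, and how reads of the mitochondrial genome were counted is not given in the sources used here, so the levels of all 13 are uncertain. Summed, the 13 took 0.199% and 0.326% of the counts in vehicle clone 4, 0.159% and 0.346% in 4OHT clone 4, 0.302% and 0.410% in vehicle clone 8, and 1.11% and 0.976% in 4OHT clone 8. The 4OHT libraries of clone 8 stood apart from all others. mt-Cytb, the cytochrome b of complex III, stood at 943 and 1481 CPM in vehicle clone 4, 676 and 1764 in 4OHT clone 4, 1072 and 1472 in vehicle clone 8, and 4489 and 4015 in 4OHT clone 8 (clone 8: 1.74 ± 0.39, adjusted p = 0.0200). mt-Nd1, a core subunit of complex I, stood at 652 and 1114 CPM in vehicle clone 4, 553 and 1128 in 4OHT clone 4, 952 and 1271 in vehicle clone 8, and 3343 and 3107 in 4OHT clone 8 (clone 8: 1.54 ± 0.33, adjusted p = 0.0185). In clone 4 both genes differed more between replicates than between treatments. The difference of the responses was called for mt-Nd5 (1.58 ± 0.35, adjusted p = 0.0491).

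**Figure D4:**
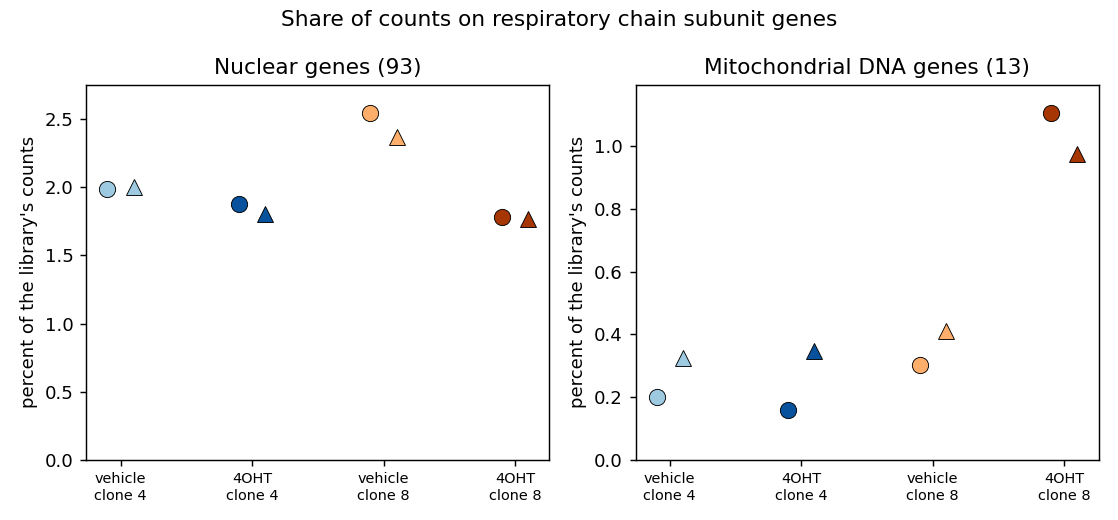
Percent of each library's counts (vertical axes, both from 0) on the 93 nuclear members (left) and on the 13 subunit genes of mitochondrial DNA (right), by group; circles are replicate 1, triangles replicate 2. The nuclear share is highest in vehicle clone 8, and the mitochondrial share is highest in 4OHT clone 8, at 1.11% and 0.976%.

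Other genes of the pathway differed in how far they moved in clone 8, where 8.6% of all tested genes were called lower and 8% higher. Of 3 genes for cytochrome c and c1, the carriers between and within complexes III and IV, 2 were called lower: Cyc1 (-0.49 ± 0.11, SE) and Cycs (-0.56 ± 0.15). Of 39 tested assembly factors outside the naming rule, 10 were called lower and 2 higher, with a median of -0.31. Uqcc3, which helps assemble complex III, was lower (-0.84 ± 0.16, adjusted p = 0.0129), as was Surf1, which helps assemble complex IV (-0.68 ± 0.16, adjusted p = 0.0253), while Cox11, a copper chaperone of complex IV, was higher (1.13 ± 0.22, adjusted p = 0.0131). Of 14 enzymes of the tricarboxylic acid cycle, which feeds the chain, 1 was called lower, near the share over all tested genes. That gene was Suclg1 (-0.54 ± 0.10, adjusted p = 0.0129), and the median of the 14 was -0.06.

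Cytosolic ribosomal protein genes were called lower in 76 of 89 (median -0.77), and mitochondrial ribosomal protein genes in 47 of 77 (median -0.48). In clone 4 the medians of these lists were -0.38 and -0.08. Of 11 tested regulators known to act on respiratory chain genes, 3 were called higher (Gabpa, Gabpb1 and Pprc1) and 1 lower in clone 8, where 8% of all tested genes were called higher and 8.6% lower. Gabpa, a subunit of the GABP factor, stood at 75.03 and 94.8 CPM in vehicle clone 8 and 126 and 148 in 4OHT clone 8 (0.69 ± 0.14, adjusted p = 0.0168). Yy1, a zinc finger factor, stood at 62.9 and 59.5 CPM in vehicle clone 8 and 29.5 and 24.2 in 4OHT clone 8 (-1.19 ± 0.17, adjusted p = 0.00852). Pprc1, a coactivator of the PGC-1 family, stood at 133 and 228 CPM in vehicle clone 8 and 315 and 342 in 4OHT clone 8 (0.86 ± 0.22, adjusted p = 0.0311). In vehicle Gabpa, Yy1 and Pprc1 also differed between the clones, in the opposite sense to the 4OHT change.

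The size of a member's change went with the length of its transcript. Of 52 tested members with a transcript under 1000 bases, 45 were called lower in clone 8 (median -0.79), and of 39 longer ones 28 were (median -0.50). Across the 91 members, Spearman's rho between length and log2 fold change was 0.476 in clone 8 and 0.325 in clone 4, and -0.56 in the vehicle comparison. It is given without a p, since genes are not independent replicates and share the same libraries. Other protein-coding genes showed the same direction. In clone 8, their median log2 fold change was -0.67 in 162 genes with transcripts under 600 bases, -0.56 in 723 genes of at least 600 and under 1000 bases, -0.26 in 3146 genes of at least 1000 and under 2000 bases, and 0.11 in 6076 genes of at least 2000 and under 4000 bases. The members of the same classes had -0.81 (20 genes), -0.77 (32), -0.53 (30) and -0.27 (7). The 2 members with transcripts of 4000 bases or more, Ndufb2 and Atp5g1, went against this order with a median of -0.88, while the 4629 other genes of that length had 0.26. Their lengths, 4371 and 4715 bases, depend on the principal transcript taken for each gene. Whether these cells use those transcripts was not tested.

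The 885 other tested genes with short transcripts had a median of -0.58 in clone 8 and 0.36 in the vehicle comparison. In clone 8, 314 of them were called lower, where 8.6% of all tested genes were. The 1334 other genes above the members' median level had -0.09 in clone 8. With smooth trends on transcript length and GC content removed from each library, 54 members were called lower in clone 8, with a median of -0.53, where 6.96% of all tested genes were called lower. Library totals in place of TMM scaling gave 62 lower calls in clone 8 and a median of -0.61, where 5.86% of all tested genes were called lower.

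**Figure D5:**
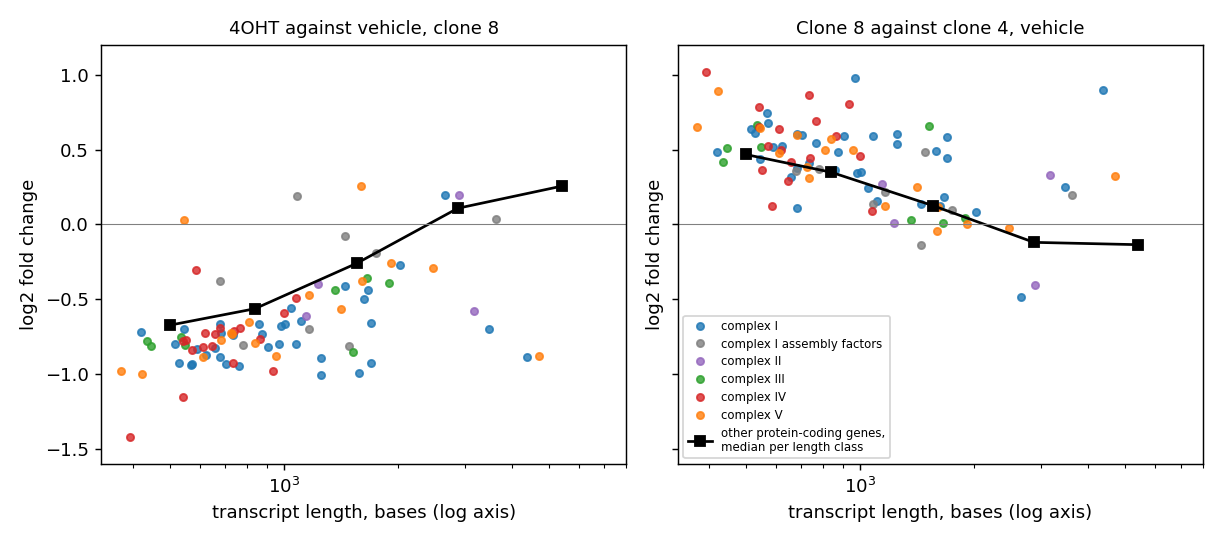
Log2 fold change of each tested member against its transcript length in bases (log axis), within clone 8 (left) and for clone 8 against clone 4 in vehicle (right); black squares join the medians of other protein-coding genes per length class at the class's median length. Short members lie lowest on the left and highest on the right, and the other genes follow the same direction; Cox7a1 is the lowest point on the left, and Cox6a2 lies outside the right panel.

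The sequence around the starts of the members was searched for motifs of factors known for these promoters. A window of 300 bases around the RefSeq start (250 before, 50 after, GRCm38.p6) was found for 74 of the 93 members, as 79 windows, and motifs were searched on both strands. The NRF1 motif GCGCATGC was in 12 of the 79 windows (15.2%), in 2.71% of all 32851 windows and in 4.64% of the windows of tested genes. In the palindromic form both strands match at overlapping positions. The GABPA core CCGGAAG was in 18 windows (22.8%), against 8.86% of all windows and 15.4% of those of tested genes. The YY1 motif AAGATGGC was in 10 (12.7%), against 2.75% and 3.83%, respectively. The estrogen-related receptor motif TCAAGGTCA was in 2 windows (2.53%), against 0.42% of all windows and 0.26% of those of tested genes. The EGR1 motif GCGGGGGCG, of a factor known to be induced by ERK, was in 1 (1.27%), against 2.91% and 5.10%, respectively. A match describes letters, not binding.

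A stretch from each complex is shown to let the motifs be seen in place, upstream of the start and outside annotated exons, from members called lower in clone 8 (RefSeq, GRCm38.p6, 5′ to 3′ along the gene's strand). Capitals mark the reverse complement of the NRF1 motif in Ndufa6 (chr15:82354323-82354442, minus strand) and its palindromic form in Cox6a1 (chr5:115349010-115349129, minus strand). They mark the GABPA core on either strand in Sdhd (chr9:50603850-50603909, minus strand), Uqcr11 (chr10:80406831-80406950, minus strand) and Atp5e (chr2:174464141-174464260, minus strand).
Ndufa6: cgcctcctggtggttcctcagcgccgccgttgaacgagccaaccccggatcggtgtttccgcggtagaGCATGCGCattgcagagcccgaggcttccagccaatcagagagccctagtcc
Sdhd: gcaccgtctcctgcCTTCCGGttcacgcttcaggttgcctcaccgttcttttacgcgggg
Uqcr11: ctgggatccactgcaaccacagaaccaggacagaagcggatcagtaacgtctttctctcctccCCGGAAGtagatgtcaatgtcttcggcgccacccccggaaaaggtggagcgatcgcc
Cox6a1: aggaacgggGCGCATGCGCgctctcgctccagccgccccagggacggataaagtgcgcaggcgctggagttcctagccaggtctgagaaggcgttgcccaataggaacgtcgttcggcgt
Atp5e: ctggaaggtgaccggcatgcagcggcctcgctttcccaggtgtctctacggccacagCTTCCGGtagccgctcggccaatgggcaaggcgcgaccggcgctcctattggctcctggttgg

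Beside these sequences, the clone 8 changes were -0.83 ± 0.11 (SE) for Ndufa6, -0.40 ± 0.10 for Sdhd, -0.81 ± 0.11 for Uqcr11, -0.84 ± 0.13 for Cox6a1 and -0.996 ± 0.14 for Atp5e. Motifs upstream of the start and outside exons also occurred in members that were not called. The NRF1 motif was in Ndufaf4 (0.04), both the NRF1 motif and the GABPA core in Atp5l (0.03), and the GABPA core in Ndufaf1 (-0.08). Whether a motif goes with the change was not tested. Ndufa6 stood at 149.9 and 142 CPM in vehicle clone 4, 141 and 133 in 4OHT clone 4, 219 and 200.04 in vehicle clone 8, and 119.5 and 115 in 4OHT clone 8, and its difference of the responses was called (-0.74 ± 0.15, adjusted p = 0.0447). Uqcr11 stood at 249.8 and 222 CPM in vehicle clone 4, 199 and 205 in 4OHT clone 4, 334 and 338 in vehicle clone 8, and 203 and 180.5 in 4OHT clone 8, with the vehicle libraries of clone 8 above all others. Cox6a1 stood at 370.2 and 401 CPM in vehicle clone 4 and 342 and 302 in 4OHT clone 4, below both vehicle libraries of the clone after 4OHT as in clone 8.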

How the data were processed

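The deposited values are read counts by Ensembl gene identifier in 8 libraries, not normalized by the authors, as its whole-number values and differing totals show. STAR 2.5.3a, bcl2fastq 2.19.1 and mm10 are named per the submitters' processing notes; the counting program, its annotation and its use of strand are not given in the sources used here, so antisense and overlapping genes are uncertain. Of 52636 identifiers, 52403 matched a symbol and 233 did not (at most 0.0325% of any library's counts). Transcript length and GC content came from GENCODE M21 (GRCm38), from 1 principal transcript a gene.

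Counts were tested with edgeR 4.0.16 in R 4.3.3: filterByExpr over the 4 groups (minimum count 10), TMM, glmQLFit with its default options and glmQLFTest, with Benjamini-Hochberg adjustment over 18321 genes and calls at an adjusted p under 0.05. SE is the size of the log2 fold change divided by the square root of F. Both clones together were fitted with terms for clone and treatment, and the other comparisons as contrasts of 4 group means. The scripts were tested on simulated counts. Per-library CPM used TMM-scaled totals. DESeq2 1.42.0, other scalings and filters, length and GC correction, thinning, replicate blocks and leaving out libraries were alternatives.

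The replicate numbers did not pair samples: correlations of same-numbered deviations ran from -0.0298 to 0.0947. Replicates of a group differed beyond sampling noise (chi-square per degree of freedom 23.1 to 67.4). Values per library are given for called members with the largest changes and no overlap between groups, for up to 10 a comparison, for members with the lowest p where fewer than 5 were called, for the highest and lowest members of each complex and for the isoform families and Sdh genes. The members, lists and rules were chosen with earlier results of these data known.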

Additional observations from a re-analysis of the deposited data

Results flagged for a closer look

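For 9 members the 4OHT response differed between the clones by a test of the difference itself (edgeR's quasi-likelihood test, clone 8 minus clone 4, log2 scale). The differences were -1.16 for Ndufb11 (adjusted p = 0.0256), -0.95 for Ndufs6 (0.0280), -0.95 for Ndufb5 (0.0295), -0.89 for Ndufa13 (0.0331) and -0.88 for Atp5o (0.0353). They were -0.74 for Ndufa6 (0.0447), -0.83 for Ndufc1 (0.0452), -0.75 for Ndufa4 (0.0487) and -0.74 for Ndufa8 (0.0499). The calls rest on single libraries, as given with the counts above, and their cause was not tested.

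One library stood apart from the 3 others of its treatment for 1 value: Cox7b was at 198.6 CPM in replicate 2 of 4OHT clone 8 and at 223, 224 and 225 CPM in the other 4OHT libraries. Among 118 sets of 4 values examined, this was the only such gap, where chance alone flags about 1 set in 20.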

How the results depend on the processing

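The members' medians kept their sign in all comparisons and settings run, and in clone 4 no member was called under any of them. Lower calls in clone 8, 73 in the main fit, were 50 to 74 under the other scalings, filters, DESeq2, thinning, the block and trend removal. That count fell further at an adjusted p under 0.01, without 1 library and on clone 8 alone. Counts over both clones, in the difference and in vehicle depended more on the setting. Library totals in place of TMM moved the median to -0.35 over both clones, -0.61 in clone 8 and -0.47 for the difference of the responses. There were 5 lower calls in the difference, where 197 of 18321 tested genes were called lower. Without an expression filter, 38 members were called lower over both clones, 32 in the difference and 2 in vehicle. Of 30973 genes tested there, 530, 1116 and 1542 were called lower, respectively. With at least 10 counts in every library, 15 members were lower in the difference and 2 in vehicle, where 408 and 971 of 14064 genes were. DESeq2 gave 33, 42 and 2, where 577, 1090 and 1536 of 18321 genes were lower. With thinned counts, 2 were lower in vehicle, where 870 of 17285 genes were. With length and GC trends removed, the medians were -0.31 over both clones, -0.53 in clone 8, -0.37 for the difference and 0.17 in vehicle, with 4 members higher and 0 lower in vehicle. With the replicate block added to that correction they were -0.31, -0.54, -0.37 and 0.17, with 3 lower calls in the difference and 3 higher and 0 lower in vehicle. Of 18321 tested genes, 338 were called lower in that difference, and 582 higher and 585 lower in vehicle. The replicate block alone gave 69 lower calls in clone 8, 6 in the difference and 32 higher and 1 lower in vehicle. Of 18321 tested genes, 1537, 280, 733 and 848 were so called, respectively. At an adjusted p under 0.01 there were 34 lower calls in clone 8, 0 in the difference and 0 either way in vehicle. Under 0.10 there were 37 in the difference and 2 lower in vehicle. The shares of all tested genes at these thresholds are not given here, so these counts only describe the members. The 4 libraries of clone 8 alone called 0. The mean of the within-clone responses, added after seeing the data, called 53 over both clones, where 614 of 18321 tested genes were called lower.

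With 1 library left out, lower calls ranged from 0 to 71 in clone 8 (0 without replicate 1 of vehicle clone 8, 60 to 71 otherwise) and from 0 to 12 in the difference. In vehicle they ranged from 0 to 41 higher and 0 to 2 lower. Medians ranged from -0.51 to -0.35 over both clones, -0.84 to -0.67 in clone 8, -0.67 to -0.51 for the difference and 0.37 to 0.51 in vehicle; a lone library was assumed to vary like the other groups.

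Over both clones, 3 members that were not called changed sign. Ndufs1 was -0.042 with trends removed and -0.042 with the block added, and ranged from -0.028 (without replicate 1 of vehicle clone 8) to 0.081 with 1 library left out. Ndufaf4 was -0.12 under both corrections and ranged from -0.037 to 0.077, below 0 without replicate 1 of vehicle clone 4, replicate 2 of vehicle clone 8 or replicate 1 of 4OHT clone 8. Cox6a2 was -0.28 with the newer quasi-likelihood method (added later) and ranged from -0.17 to 0.78, below 0 without replicate 2 of vehicle clone 4 or replicate 1 of 4OHT clone 4. The planned fit with the older method is the default and gave the main values. The cause of these changes was not tested. The number of reads limits the precision for the scarcest isoforms, such as Cox6a2, Cox8c, Cox4i2 and Cox7b2.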
